A study of Mus musculus with 2 samples.

Results

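The insulin-like growth factor (IGF) axis was followed here through 10 genes listed by name: the ligands Igf1 and Igf2, the receptors Igf1r and Igf2r, and the binding proteins Igfbp2, Igfbp3, Igfbp4, Igfbp5, Igfbp6 and Igfbp7. They are 10 of the 19938 genes that the arrays read through probe sets naming a single gene, and each has 1 such probe set. The samples were C2C12 cells, a mouse myoblast line, kept for 7 days in 2% horse serum to form myotubes. They were then exposed to an adenoviral vector for 48 h at a multiplicity of infection (m.o.i.) of 30. For both cultures 10% fetal bovine serum is listed as well. The Ad-caERα culture received a vector carrying a constitutively active estrogen receptor α, and the Ad-DsRed culture received a vector carrying the red fluorescent protein DsRed. Each vector has 1 array, so no test between them is possible, and every difference below lacks a replicate check. The labels do not say which part or which species' form of the receptor the vector carries, nor which promoter drives it.

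IGF1 and IGF2 are secreted peptides related to insulin that bind the tyrosine kinase IGF1R at the cell surface, which signals through IRS adaptors to PI3K, AKT and mTOR and to the MAP kinases. The IGF binding proteins hold the ligands outside the cell and can withhold them from the receptor or deliver them to it, and proteases free the ligands by cutting the binding proteins. In skeletal muscle the axis promotes both myoblast differentiation and fibre growth, and C2C12 cells make their own IGF2 as they differentiate. Estrogen is known to induce Igf1 in the mouse uterus, and to raise IGF1R and IGFBP4 and lower IGFBP3 in human breast cancer cells.

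All 10 genes lay above the detection floor on both arrays, and none of them reached a 1.5-fold difference. The floor was a log2 signal of 5.11, set from olfactory and vomeronasal receptor genes, and 13556 genes passed it on at least 1 array and are called measured. Differences are log2 signal in Ad-caERα minus log2 signal in Ad-DsRed. Among all measured genes 2.71% differed by at least 1.5-fold in either direction and 0.686% by at least 2-fold, so a list of this size would hold few such genes in any case. At a lower bar of 0.32 on the log2 scale, tried as an alternative, 2 of the 10 were higher in Ad-caERα (Igf1 and Igfbp6) and 0 were lower, while 7.34% of measured genes were that much higher and 6.76% that much lower. The median difference was 0.026 over the 10 genes and 0.0017 over all measured genes. The median size of the difference, taken without its sign, was 0.22 for the 10 genes and 0.14 for all measured genes.

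Since no spread between cultures is known, each difference is set beside the SD of the difference over the 500 measured genes nearest to it in mean signal. That SD is a yardstick of how far genes of like signal lie from 0 on these 2 arrays, and it includes whatever the vector did to them. By this measure 4 genes (Igf1, Igfbp6, Igf2r and Igfbp2) lay more than 1 SD from 0 and 6 lay within it. Igfbp2 was at the edge, at 1.01 SD. After quantile normalization its difference was 0.22, and after a correction for trends with signal 0.23. Both are below its SD of 0.25, which was not recalculated for them. For comparison, 2868 of the 13556 measured genes lay further from 0 than the SD over all of them, 0.27. That single SD is not matched for signal, so the counts are not strictly alike. A separate yardstick, the SD between probe sets of the same gene over 770 genes, was 0.13. It describes agreement between probe sets on the same pair of arrays, not between cultures.

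**Figure D1:**
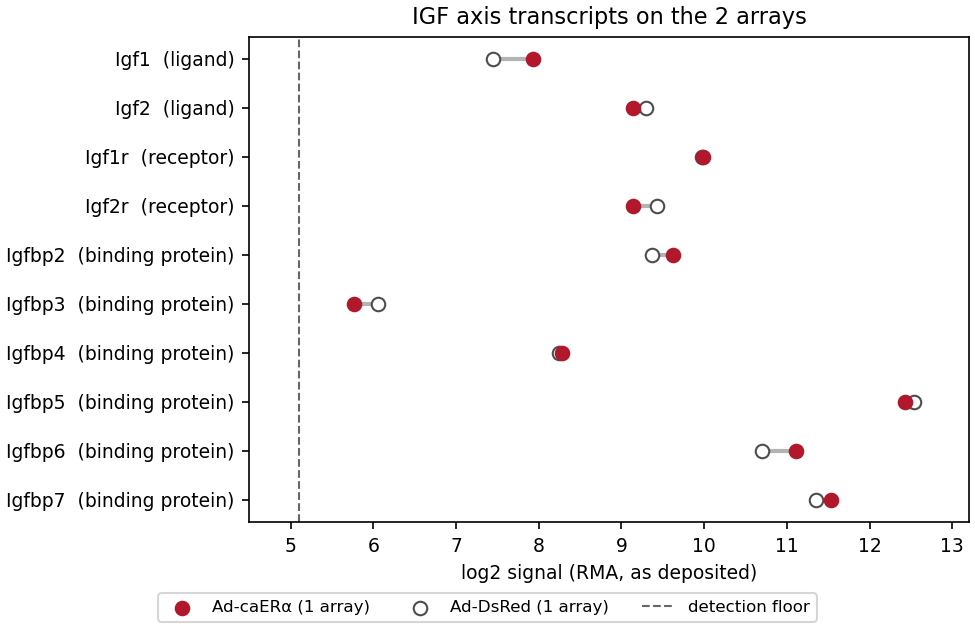
Log2 signal (RMA values, horizontal axis) of the 10 IGF axis genes in Ad-caERα (filled red) and Ad-DsRed (open) myotubes, 1 array each, with the detection floor of 5.11 dashed. Signals are to be compared between the arrays within a gene, not between genes. Igf1 and Igfbp6 have the widest gaps to the right, Igfbp3 lies nearest the floor, and the points of Igf1r and Igfbp4 overlap.

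The sequences upstream of the 2 genes with the highest and the 2 with the lowest difference are shown because these are the members that the description turns on, and the introduced protein is a DNA-binding receptor. Each is the 250 bases before a RefSeq transcription start (assembly GRCm38.p6), written 5′ to 3′ on the gene's own strand. Capitals mark the half-site of the estrogen response element, GGTCA or its complement TGACC. The Igf1 window is chr10:87860861-87861110 (plus strand), the Igfbp6 window chr15:102143936-102144185 (plus strand), the Igf2r window chr17:12769707-12769956 (minus strand) and the Igfbp3 window chr11:7213924-7214173 (minus strand).
Igf1: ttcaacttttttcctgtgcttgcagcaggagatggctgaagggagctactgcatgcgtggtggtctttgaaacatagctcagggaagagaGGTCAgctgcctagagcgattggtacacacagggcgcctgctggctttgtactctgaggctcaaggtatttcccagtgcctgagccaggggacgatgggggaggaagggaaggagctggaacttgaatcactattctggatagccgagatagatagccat
Igfbp6: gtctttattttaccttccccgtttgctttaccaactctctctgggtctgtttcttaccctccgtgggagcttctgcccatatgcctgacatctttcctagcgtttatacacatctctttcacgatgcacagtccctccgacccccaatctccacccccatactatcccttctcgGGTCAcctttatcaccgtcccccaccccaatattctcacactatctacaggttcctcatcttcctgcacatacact
Igf2r: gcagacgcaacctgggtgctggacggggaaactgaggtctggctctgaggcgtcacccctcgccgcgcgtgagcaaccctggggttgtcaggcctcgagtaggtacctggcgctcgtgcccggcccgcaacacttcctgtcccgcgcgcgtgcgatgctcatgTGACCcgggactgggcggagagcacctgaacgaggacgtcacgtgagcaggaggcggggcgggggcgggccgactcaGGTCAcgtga
Igfbp3: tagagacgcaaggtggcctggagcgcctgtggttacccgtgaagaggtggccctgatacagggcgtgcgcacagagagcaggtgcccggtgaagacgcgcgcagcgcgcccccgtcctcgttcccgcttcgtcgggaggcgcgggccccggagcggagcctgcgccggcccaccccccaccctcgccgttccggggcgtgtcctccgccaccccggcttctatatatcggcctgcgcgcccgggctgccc

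The Igf1 window held 1 half-site, 160 bases before the start, and the Igfbp6 window 1, at 76 bases. The Igf2r window held 2, at 87 and 10 bases, and the Igfbp3 window 0. Both genes of the higher pair and 1 of the lower pair thus carried the half-site. Over all 10 genes, 8 of 14 windows (Igf2 has 4 and Igfbp2 has 2) held a half-site on either strand, as did 35.2% of 32841 upstream windows of the same length in the RefSeq table. The full palindrome, GGTCANNNTGACC, which contains a half-site on each strand, was in 0 of the 14 and in 0.0639% of all windows.

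Sites through which the estrogen receptor is known to act without binding DNA itself were searched in the same way, on both strands. For AP-1 the pattern was TGANTCA, a loose form of the site that allows any base at its centre. It was found 37 bases before the Igf1 start, as TGAATCA. In 1 Igfbp2 window it lay 39 bases before the start, as TGAGTCA. The same loose pattern was in 6.75% of all windows. The Sp1 GC box, GGGCGG, was in 6 of the 14 windows, those of Igf1r, Igf2r and Igfbp7 among them, and in 32.7% of all windows. Igfbp4, whose human promoter is known to respond to the receptor through Sp1 in breast cancer cells, had neither motif nor a half-site in its window. These matches describe letters in short windows, and binding of the receptor was not measured here.

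Of the ligands, Igf1 had the highest difference of the 10 genes and Igf2 lay slightly on the other side of 0. Igf1, the growth hormone-responsive ligand that muscle also makes locally, read 7.93 (log2 signal) in Ad-caERα, against 7.45 in Ad-DsRed. The difference was 0.47, or 1.39-fold higher in Ad-caERα, 1.55 times the SD of genes near it in signal. It ranked 398th from the top among the 13556 measured genes, and 4.82% of them lay at least as far from 0 in either direction. Igf1 therefore stood in the outer part of the distribution while staying short of 1.5-fold.

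Igf2, the ligand that differentiating C2C12 cells make for themselves, had a signal of 9.14 (log2) in Ad-caERα, against 9.29 in Ad-DsRed. Its difference was -0.16, or 1.11-fold lower, which is 0.64 SD of its neighbours in signal below 0. Of all measured genes 44.8% lay at least as far from 0. The arrays were therefore no further apart at Igf2 than at a large share of other genes. As only 1 single-gene probe set names Igf2, signals from its 4 upstream windows could not be separated.

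The receptors differed from each other in that Igf1r was level between the arrays and Igf2r was lower in Ad-caERα. Igf1r, the signalling receptor for both ligands, had a signal of 9.99 (log2) in Ad-caERα and of 9.97 in Ad-DsRed. The difference of 0.022 was smaller than that of 91.2% of measured genes. Its sign was not stable, since it was -0.0071 after quantile normalization of the deposited columns. Insr, the insulin receptor, which can pair with IGF1R in hybrid receptors, had a signal of 9.62 (log2) in Ad-caERα and of 9.72 in Ad-DsRed on its brighter probe set, a difference of -0.11. Its other probe set gave -0.12.

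Igf2r, which carries lysosomal enzymes tagged with mannose 6-phosphate and clears IGF2 from the cell surface without signalling as a kinase, had a signal of 9.14 (log2) in Ad-caERα, against 9.43 in Ad-DsRed. The difference of -0.29, or 1.22-fold lower, was 1.31 times the SD of genes near it in signal. Among measured genes 8.54% had a lower difference and 17.9% lay at least as far from 0. Igf2 and Igf2r, a ligand and the receptor that removes it, were thus both below 0, Igf2r by more.

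**Figure D2:**
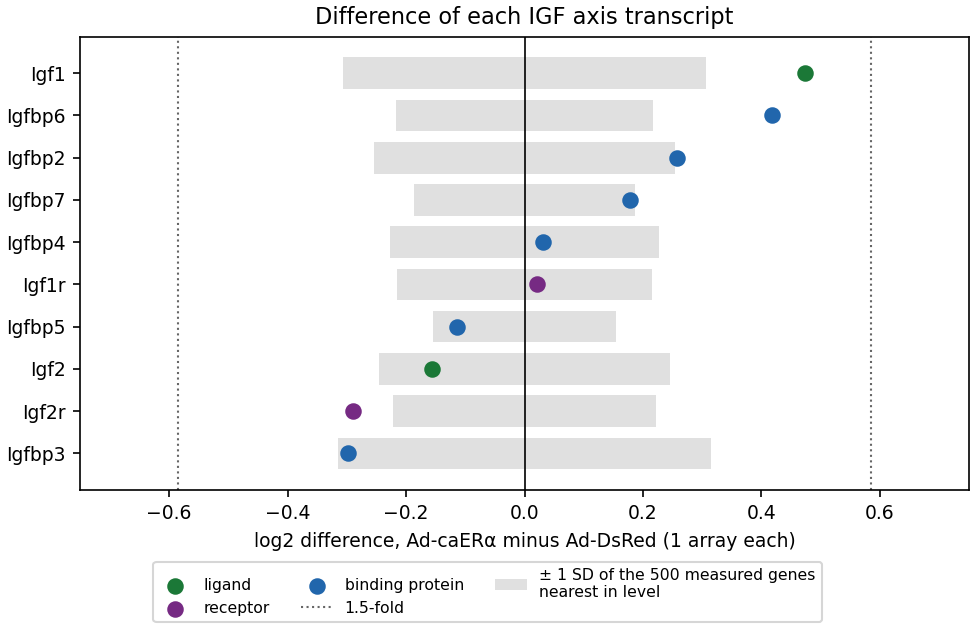
Log2 difference (Ad-caERα minus Ad-DsRed, 1 array each; horizontal axis) of the 10 genes, ordered by value and coloured by role. Grey bars span ± 1 SD of the difference over the 500 measured genes nearest in signal, and dotted lines mark 1.5-fold. Igf1 (0.47), Igfbp6 (0.42), Igfbp2 (0.26) and Igf2r (-0.29) lie outside their bars, and no gene reaches a dotted line.

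The 6 binding proteins did not move as a block: 4 were above 0 and 2 below, with differences from -0.30 to 0.42 and a median of 0.10. The members above 0 by more than a few hundredths were Igfbp6, Igfbp2 and Igfbp7. Igfbp6, which binds IGF2 in preference to IGF1, had a signal of 11.11 (log2) in Ad-caERα, against 10.70 in Ad-DsRed. The difference of 0.42 (1.34-fold higher) was 1.93 times the SD of its neighbours in signal, the largest such ratio of the 10 genes. It ranked 538th from the top, and 7.09% of measured genes lay at least as far from 0. Igfbp6 is a bright probe set, 6.01 log2 units above the floor in Ad-caERα and 5.59 in Ad-DsRed, where RMA compresses differences less than near the floor.

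Igfbp2, which also binds integrins through an RGD motif, had a signal of 9.63 (log2) in Ad-caERα, against 9.37 in Ad-DsRed. It was 1.20-fold higher, a difference of 0.26 that lay at 1.01 SD of its neighbours in signal and so at the edge of the yardstick. Igfbp7, a relative with low affinity for IGFs that is found in the extracellular matrix, had 11.53 in Ad-caERα, against 11.35 in Ad-DsRed. Its difference of 0.18 (1.13-fold higher) was within 1 SD, at 0.95.

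Igfbp3, the main carrier of IGFs in blood, was the weakest of the 10 probe sets relative to the floor. It had the lowest difference in the deposited values. Its log2 signal was 5.77 in Ad-caERα, against 6.06 in Ad-DsRed, 0.66 and 0.96 above the floor. The difference was -0.30 (1.23-fold lower), or 0.95 SD of genes near it in signal. With the stricter floor of 6.16 it no longer counts as measured.

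Igfbp5, a binding protein that myoblasts induce early in differentiation, had a signal of 12.43 (log2) in Ad-caERα and of 12.54 in Ad-DsRed. The difference of -0.11 (1.08-fold lower) was 0.73 SD of its neighbours. Igfbp4, an inhibitory binding protein that the protease PAPP-A cuts, had 8.28 in Ad-caERα and 8.25 in Ad-DsRed. Its difference of 0.031 was smaller than that of 87.8% of measured genes, and it was -0.0096 after a correction for trends with signal. Both genes lay within 1 SD of genes with like signal, Igfbp4 (0.14 SD) further inside than Igfbp5.

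Some of the 10 genes have relatives close by in the genome. Igfbp2 and Igfbp5 are neighbours on chromosome 1 with 0 annotated genes between them, and their differences were of opposite sign, at 0.26 and -0.11. Igfbp3 and Igfbp1, neighbours on chromosome 11, could not be compared, because Igfbp1, a liver binding protein, was below the floor with 4.53 in Ad-caERα and 4.79 in Ad-DsRed. Igf2 and the insulin gene Ins2 lie on chromosome 7 with 2 annotated genes between them, and Ins2 had 7.32 on both arrays, a difference of 0.0029 beside the -0.16 of Igf2.

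**Figure D3:**
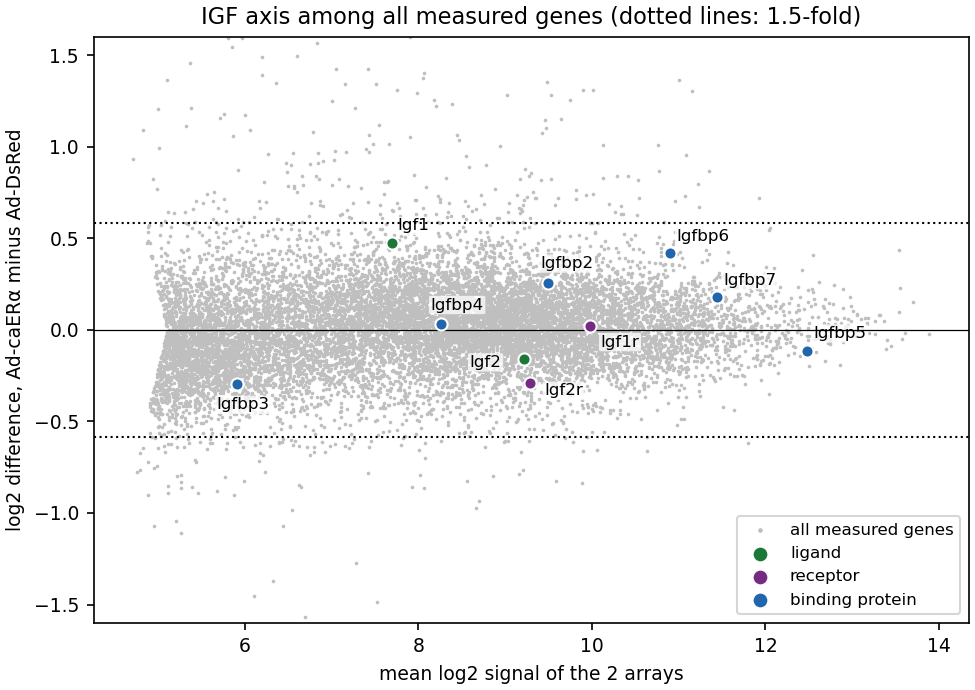
Log2 difference (Ad-caERα minus Ad-DsRed, vertical axis) against the mean log2 signal of both arrays for 13556 measured genes (grey) and the 10 IGF axis genes (coloured by role), with 1.5-fold dotted; 29 genes lie beyond the vertical range of ± 1.6. The 10 genes spread over much of the range of signal and sit inside the grey cloud, Igf1 and Igfbp6 near its upper edge.

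The genes around the axis were described from 3 lists. Among 20 genes for extracellular partners and ligand release, 14 were measured, 9 above 0 and 5 below, with a median of 0.014. In this list 0 genes were 1.5-fold higher and 0 were 1.5-fold lower, beside 1.82% and 0.885% of all measured genes. The top of the list was held by genes of proteases, of which HTRA1 and ADAM12 are known to cut IGF binding proteins. Htra3, a secreted serine protease related to HTRA1, had 8.49 in Ad-caERα, against 7.96 in Ad-DsRed, with a difference of 0.53 (1.44-fold higher) at 2.40 SD of its neighbours in signal. Adam12, a metalloprotease that cuts IGFBP3 and IGFBP5, had 6.08 in Ad-caERα, against 5.59 in Ad-DsRed, with a difference of 0.48. Its signal lay 0.97 above the floor in Ad-caERα and 0.49 in Ad-DsRed. With the stricter floor of 6.16 it no longer counts as measured. Htra1, whose product cuts IGFBP5, was next, at 0.35 with 11.00 in Ad-caERα and 10.64 in Ad-DsRed.

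Other proteases of the list did not share that position. Adamts1 had 8.32 in Ad-caERα and 8.45 in Ad-DsRed, with a difference of -0.14, and Adam28 was below the floor on both arrays. Pappa, which encodes PAPP-A, had 5.63 in Ad-caERα and 5.61 in Ad-DsRed, with a difference of 0.014, and Pappa2 was below the floor on both arrays. Stc2, an inhibitor gene of PAPP-A, had 6.84 in Ad-caERα and 6.67 in Ad-DsRed, with a difference of 0.18. Stc1, in the same list, had 6.57 in Ad-caERα and 6.56 in Ad-DsRed, with a difference of 0.014. The lowest genes were Igfbpl1, a binding protein relative that was below the floor in Ad-caERα (5.10, against 5.28 in Ad-DsRed), and Ghr, the growth hormone receptor, at -0.17 with 10.77 in Ad-caERα and 10.94 in Ad-DsRed. Igfbpl1 passed the floor only through Ad-DsRed, so its place among the genes below 0 was fixed by that filter. Igfals, which encodes the subunit that stabilises IGFs in blood, was below the floor on both arrays.

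The intracellular relay from the receptor through PI3K, AKT and mTOR was centred on 0, with 1 gene far outside. Of its 47 listed genes 40 had a single-gene probe set and 37 were measured, 18 above 0 and 19 below, with a median of -0.0040. Socs2 was the 1 gene at least 1.5-fold higher, and 0 were that much lower, beside 1.82% and 0.885% of all measured genes. Socs2, a feedback inhibitor of growth hormone signalling that STAT5 induces and that can bind IGF1R, had 11.27 in Ad-caERα, against 10.26 in Ad-DsRed. This 2.01-fold difference ranked 79th from the top of all measured genes. Its second probe set, at 8.88 in Ad-caERα and 7.83 in Ad-DsRed, was 2.08-fold higher. Both probe sets of the gene therefore put Ad-caERα above Ad-DsRed by a like amount.

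Next in the relay was Ptpn1, the phosphatase PTP1B that removes phosphate from the insulin and IGF1 receptors, at 9.45 in Ad-caERα and 9.04 in Ad-DsRed, with a difference of 0.42. At the other end Deptor, an inhibitor bound to mTOR, had 9.49 in Ad-caERα, against 10.05 in Ad-DsRed. Its difference of -0.56 (1.47-fold lower) was 2.57 times the SD of genes near it in signal, and 1.11% of measured genes had a lower one. Grb14, an adaptor that inhibits the insulin receptor, had 6.27 in Ad-caERα and 6.56 in Ad-DsRed, with a difference of -0.29. The adaptor gene Irs1 was at -0.023 on its brighter probe set, and its other probe set, with 5.61 in Ad-caERα and 5.90 in Ad-DsRed, gave -0.29. Irs2, a related adaptor gene, had 7.32 in Ad-caERα and 7.56 in Ad-DsRed, with a difference of -0.23. The kinase genes Akt1 and Mtor were at 0.041 and -0.14, each within 1 SD of its neighbours.

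The third list joined genes of the Igf2-H19 locus, imprinted genes from several chromosomes and genes of proteins that bind or regulate Igf2 RNA or its locus, so it does not describe the neighbourhood of Igf2 alone. Of 17 listed genes 13 had a single-gene probe set and 10 were measured. Of these 2 were above 0 and 8 below, with a median of -0.18, while 6612 of the 13556 measured genes lay below 0. Meg3, among those below 0, had 4.98 in Ad-caERα, under the floor, and 5.15 in Ad-DsRed. It passed the floor only through Ad-DsRed, so its place below 0 was fixed by that filter. H19, the noncoding RNA gene near Igf2, was not analysed here, since no probe set named it alone. Mest, an imprinted gene of the mesoderm, was the 1 gene at least 1.5-fold lower, as were 0.885% of all measured genes. It had 5.24 in Ad-caERα, against 6.12 in Ad-DsRed, and was 1.84-fold lower, with the Ad-caERα value only 0.13 above the floor. Zim1, an imprinted zinc finger gene, had 9.70 in Ad-caERα and 9.99 in Ad-DsRed, with a difference of -0.29. The highest were Dlk1, an imprinted Notch-related membrane protein gene, at 0.021, and Ins2 at 0.0029.

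**Figure D4:**
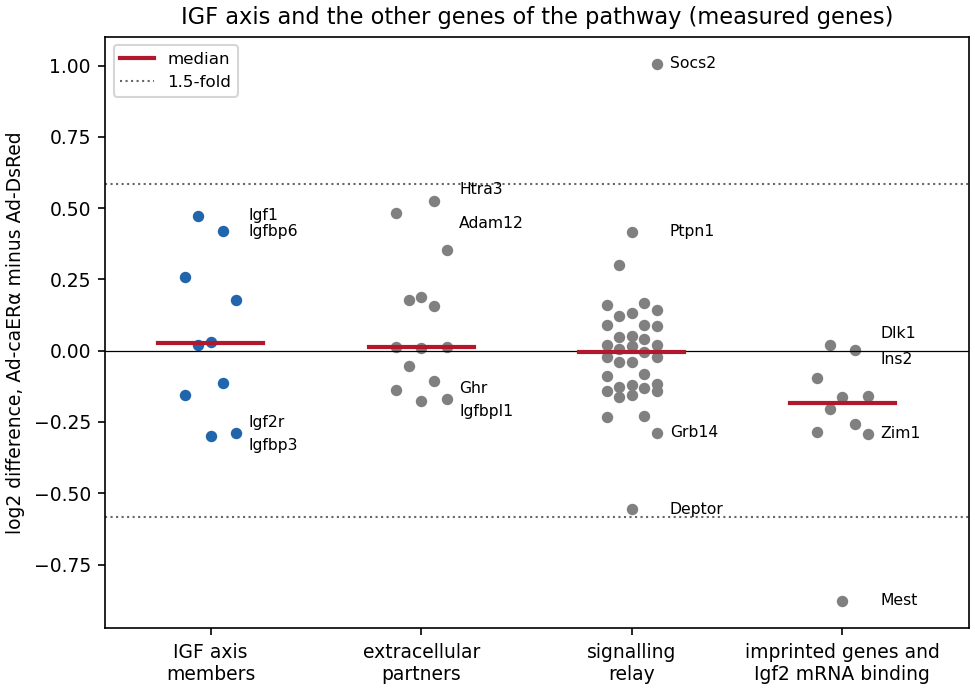
Log2 difference (Ad-caERα minus Ad-DsRed, vertical axis) of the 10 IGF axis genes and of the measured genes of the 3 surrounding lists, with the median of each as a red line and 1.5-fold dotted. Horizontal offsets within a column carry no value, and the 2 highest and 2 lowest genes of the member, extracellular, relay and imprinted columns are named. Socs2 (1.01) and Mest (-0.88) are the only points beyond 1.5-fold.

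The labelled cell type was checked on its marker genes. All 12 myotube markers were measured, with log2 signals from 7.63 to 13.00 in Ad-caERα and from 8.29 to 12.92 in Ad-DsRed. Their median difference was -0.19, with 10 of 12 below 0, and Mymx (-0.79) and Casq1 (-0.61) at least 1.5-fold lower. All 4 myoblast markers were measured too, and they lay on both sides of 0. Myf5 had 10.17 in Ad-caERα and 9.46 in Ad-DsRed (1.64-fold higher), and Vcam1 had 8.23 in Ad-caERα and 9.16 in Ad-DsRed (1.91-fold lower). Mki67, a gene of dividing cells, was at -0.44 and Pax7 at -0.14. Of 6 leukocyte markers 1 was measured, of 5 endothelial 2, of 5 adipocyte 3 and of 5 osteoblast 1. The osteoblast marker Bglap had no single-gene probe set. Of those measured, endothelial Tek was the brightest, with 6.60 in Ad-caERα and 6.73 in Ad-DsRed. The others (Cd3e, Vwf, Plin1, Cidec, Retn and Alpl) were under the stricter floor of 6.16 on both arrays. Ptprc, Pecam1, Cdh5, Adipoq and Fabp4 were among those below the main floor on both arrays. Among 5 fibroblast markers 4 were measured, the brightest being Dcn with 13.18 in Ad-caERα and 13.11 in Ad-DsRed. The other measured fibroblast markers, Pdgfra, Col15a1 and Dpt, were below 0 (-0.28, -0.29 and -0.20), and the median of the 4 was -0.24. The part of the marker differences in the IGF axis values was not tested, and in bulk RNA a smaller share of a cell type cannot be told apart from less RNA per cell. Esr1, the gene of the introduced receptor, had 8.44 in Ad-caERα, against 7.38 in Ad-DsRed.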

How the data were processed

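Total RNA (150 ng per sample) was profiled on Affymetrix arrays, 1 per vector. The authors deposited log2 signals per probe set for 35556 probe sets, made with Affymetrix Expression Console and RMA per the submitters' processing notes. RMA corrects background, equalises the distributions of arrays and summarises probes, so a shift in total mRNA would not show. Software versions, the arrays normalised together and the genome build are, in the sources used here, not given. The column medians were 6.02 for Ad-caERα and 6.05 for Ad-DsRed. Detection calls and probe-level signals were not used here, and the number of arrays limits the precision.

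Genes were named from the platform annotation, which gives 1 gene for 21789 probe sets, several for 1621 and none for 12146. Identifiers of 21698 of the single-gene probe sets matched RefSeq (GRCm38.p6), with 0 symbols changed. For a gene with several probe sets, the one with the highest mean was used. The floor is the 95th percentile of the higher value over 1212 olfactory and vomeronasal receptor probe sets. Genes were described by size of difference (1.5-fold and 2-fold) beside the share of all measured genes, with no p-value. The named genes are the 10 members, Esr1 and, in each list, the 2 highest and 2 lowest measured genes and any past 1.5-fold; others were chosen after their values were seen. Members and lists were chosen with earlier results of these data known. Likeness of expression patterns was not computed because 2 arrays give none. Alternatives covered normalization, floor, probe set choice and threshold. Promoter sequences are RefSeq's, without the 50 bases after each start; all 10 genes matched. Python 3.11.15, numpy 2.4.6, pandas 2.3.3, statsmodels 0.14.6 and matplotlib 3.10.9 were used.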

Additional observations from a re-analysis of the deposited data

How the results depend on the processing

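No paired analysis was possible because each vector has 1 array, and no replicate could be left out for the same reason, so the spread between cultures is unknown. The differences of the 10 genes were recalculated 69 times under 7 alternatives. All 69 moved by less than the SD of genes near them in signal, by at most 0.064, and 67 kept their sign. The exceptions were Igf1r, at -0.0071 with quantile normalization, and Igfbp4, at -0.0096 with loess correction, both close to 0 throughout. Igf1 stayed between 0.43 and 0.50, Igfbp6 between 0.40 and 0.45, Igf2r between -0.33 and -0.26 and Igfbp2 between 0.22 and 0.29. Igfbp3 was -0.26 with quantile normalization and -0.23 with loess correction, where Igf2r was -0.33 and -0.32. Under these settings Igf2r, not Igfbp3, was the lowest of the 10 genes. Averaging probe sets, dropping the floor and raising values to the floor could not move these genes, since each has 1 probe set and lies above the floor. A stricter floor could remove a gene but not move its value. Many of the 69 were therefore fixed in advance. Only centring on array medians, quantile normalization and loess correction could shift a value. With the floor at the 99th percentile (6.16, leaving 10897 genes) Igfbp3 had no value. The count of members at least 1.5-fold higher, 0, was 2 with the lower threshold of 0.32 on the log2 scale. It stayed at 0 in each direction under the other settings, as did the 2-fold counts. In the surrounding lists, quantile normalization put 1 relay gene, Deptor at -0.59, at least 1.5-fold lower. Socs2 came to just under 2-fold with quantile normalization (0.97) and with loess correction (0.99); the cause was not tested. With the stricter floor the imprinted list had 0 genes that much lower, because Mest was no longer measured. The imprinted list's median stayed between -0.18 and -0.14, while the medians near 0 took either sign, from -0.043 to 0.066 for extracellular partners and from -0.040 to 0.025 for the relay.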

Other observations

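Igf1os, an antisense transcript of the Igf1 locus, was below the floor on both arrays, with a log2 signal of 3.57 in Ad-caERα and of 3.74 in Ad-DsRed. Igf2bp3, which binds Igf2 mRNA in fetal tissues and tumours, lay just above it at 5.25 in Ad-caERα and 5.41 in Ad-DsRed, and Igf2bp1 lay below it. Hmga2, a chromatin protein gene that acts upstream of Igf2bp2 in mouse myoblasts, had 9.45 in Ad-caERα and 9.73 in Ad-DsRed, with a difference of -0.28. Foxo3, a transcription factor that AKT holds out of the nucleus, had 9.47 in Ad-caERα and 9.17 in Ad-DsRed, with a difference of 0.30. These genes were picked out after their values were seen.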
